A study of Homo sapiens with 6 samples.

Results

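Lysosomal genes were examined in human cells treated with a plant extract. The members are 57 genes, 5.19% of the 1099 genes in the authors' deposited table, whose annotation carries at least 1 of 4 terms: the KEGG Lysosome map (24 genes) and the GO terms lysosome (31), lysosomal lumen (19) and lysosomal membrane (25). SQSTM1, FTL and FTH1 were to be left out, and none of these 3 carried any of the terms. Poly(A) RNA had been sequenced from 6 libraries of wild-type cells labelled A549, a lung adenocarcinoma line. After 24 h with F/B extract, named in the series title as an extract of Flos Sophorae Immaturus and broccoli seed, 3 libraries were made, and 3 came from cells kept with DMSO, the vehicle. The labels give no dose. They do not say that replicates were separate cultures, and the p-values thus rest on a spread between libraries that may be only technical.

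Lysosomes are acidic compartments in which hydrolases break down proteins, lipids, nucleic acids and sugar chains that arrive by endocytosis and autophagy. Most soluble hydrolases receive a mannose 6-phosphate tag in the Golgi and are carried onward by receptors for that tag. The lysosomal membrane holds a heavily glycosylated lining, ion channels and transporters, and its outer face is where the mTORC1 kinase complex senses nutrients. Transcription factors of the TFEB family bind an element known as CLEAR, whose core is CACGTG, in the promoters of many lysosomal genes. Other basic helix-loop-helix factors also bind that core.

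The table holds the 9.74% of 11289 tested genes that had the smallest p-values in the extract comparison, so each gene in it was selected on that comparison. Genes outside the table had larger p-values or were left untested. Estimated counts over the listed genes summed to 3084338 to 4640117 per library. The label A549 was set beside marker genes. MTAP lies in a region whose loss is known for A549, yet it had 48.9 to 60.5 TPM (a length-scaled share of transcripts) over the 6 libraries. The library names in the labels read AGS, and 4 of 14 gastrointestinal epithelial markers were listed, against 1 of 11 lung markers, LAMP3. The 4 gastrointestinal markers (VIL1, CDH17, TFF1 and REG4) summed to 327 to 341 TPM with vehicle and 224 to 256 TPM with extract, and their part in the results below was not tested. Of 10 markers of macrophages and other lysosome-rich leukocytes, 0 were listed. A marker is listed for its small p-value in the extract comparison, and an expressed but unchanged marker would be absent. These counts of listed markers therefore do not tell which cells were used.

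With extract, 47 of the 57 lysosomal genes were higher and 10 were lower, while 35.2% of the 1099 listed genes were higher and 64.8% lower. By edgeR's quasi-likelihood test, 39 of the 57 rose and 8 fell at an adjusted p under 0.05, against 29.0% of the listed genes called higher and 52.6% called lower. The median log2 fold change (extract over vehicle) was 0.25 over the members, a 1.19-fold difference, and -0.22 over all listed genes. Changes were small: 2 of the 57, ARRDC3 and ASS1, differed by more than 1.5-fold, as did 89 of the 1099. The 3 extract libraries lay outside the range of the 3 vehicle libraries for all 57 members, 47 above it and 10 below, which also held for 98.5% of listed genes (34.7% above and 63.8% below). Every gene was selected on this comparison, so no support is drawn from these counts. On leaving out vehicle replicate 2, vehicle replicate 3 or extract replicate 2, only 5, 6 and 7 members passed the test as higher and 2, 3 and 4 as lower, and the medians were 0.26, 0.24 and 0.25. Without vehicle replicate 1, extract replicate 1 or extract replicate 3 these calls numbered 28, 36 and 31 higher and 6, 9 and 5 lower. Over all 1099 listed genes, the first 3 of these fits called 50, 79 and 69 higher and 125, 224 and 179 lower. The last 3 fits called 245, 286 and 253 higher and 464, 570 and 433 lower, against 319 and 578 with all 6 libraries. The calls thus fell over the whole table and not only among the members. In bulk RNA, a change in the share of cells of a type and a change in RNA per cell cannot be told apart. The adjusted p in the authors' deposited table was under 0.05 for 56 of the 57, as for 96.0% of the listed genes.

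**Figure D1:**
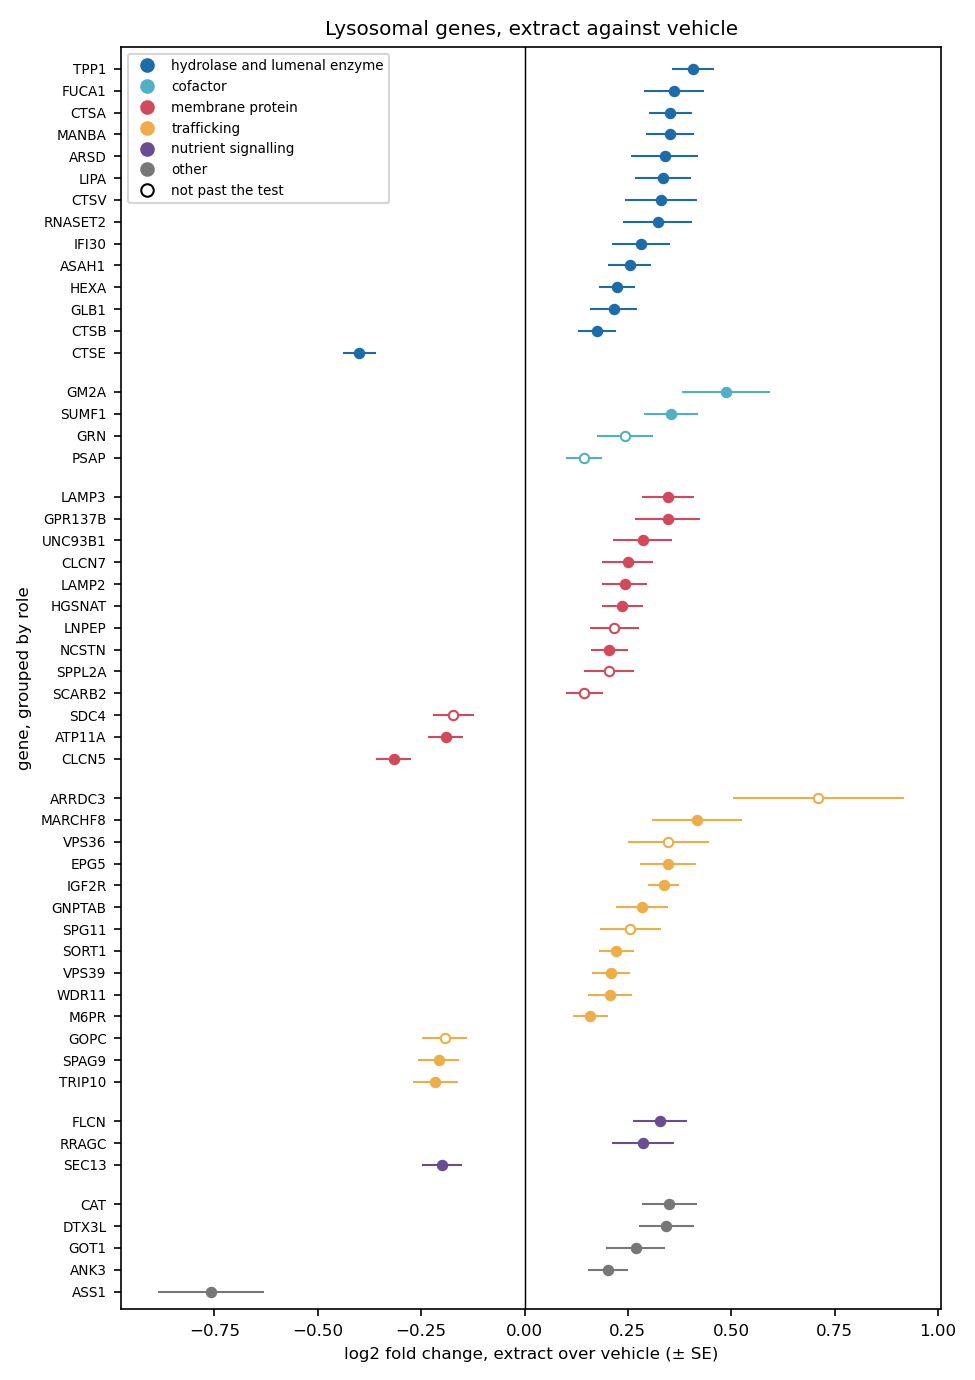
Log2 fold change (extract over vehicle) with its standard error (SE) for 53 of the 57 lysosomal genes, by role; filled points passed edgeR's test at an adjusted p under 0.05 and open points did not. Of the 14 hydrolases and lumenal enzymes drawn, 13 lie above 0 and CTSE lies at -0.40, while the genes below 0 are spread over 5 of the 6 roles.

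The sequences below show where the CACGTG core stands in the members' promoters. RefSeq promoter windows (GRCh38.p14, the 250 bases before each annotated start) were matched by symbol for 40 of the 57 members. Among the other 17 were ARSD, ASAH1, CTSB, EPG5, HEXA, HGSNAT, LAMP2, LAMP3, MANBA, PSAP, SPG11, TRIP10 and UNC93B1. The core, which reads the same on both strands, was in at least 1 window of 11 of the 40 (27.5%), of 111 of 872 listed genes (12.7%) and of 2110 of all 27305 genes with a window (7.73%). The longer TCACGTGA, which contains the core, was in 4 of the 40 (10.0%), 22 of 872 (2.52%) and 283 of 27305 (1.04%). A match is a string of letters and not a measured binding site, and a gene with several starts has more windows to match. The 5 members shown hold more than 1 core or the 8-letter form; capitals mark the core, and each stretch runs 5′ to 3′ on the gene's strand from at most 15 bases before the first core to at most 15 after the last, ending before the start.
IGF2R (chr6:159968935-159969074, + strand): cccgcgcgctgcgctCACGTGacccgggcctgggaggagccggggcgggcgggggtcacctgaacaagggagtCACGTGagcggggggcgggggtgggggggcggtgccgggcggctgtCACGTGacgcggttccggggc
CTSA (chr20:45891278-45891330, + strand): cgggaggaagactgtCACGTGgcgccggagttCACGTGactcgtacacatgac
MARCHF8 (chr10:45594908-45594951, - strand): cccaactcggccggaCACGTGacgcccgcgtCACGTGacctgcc
CLCN7 (chr16:1475035-1475090, - strand): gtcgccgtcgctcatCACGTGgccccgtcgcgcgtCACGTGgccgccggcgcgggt
CLCN5 (chrX:50067523-50067558, + strand): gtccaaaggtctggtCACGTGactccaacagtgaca

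IGF2R carried 3 cores, with first bases 132, 74 and 28 before the start, each of them within TCACGTGA. CTSA, MARCHF8 and CLCN7 carried 2 cores each, and all 4 of these genes rose. CLCN5, which fell, had a single core, within TCACGTGA, before 1 of its 3 annotated starts. A single core was also found for SUMF1, RRAGC, M6PR, IFI30 and VPS36, which were higher with extract, and for ASS1, which was lower. By direction, the core was in 9 of 32 matched members that were higher and 2 of 8 that were lower.

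Soluble hydrolases and lumenal enzymes made up 17 members, of which 16 rose and 1 fell, with a median log2 fold change of 0.32. Among all listed genes 29.0% were called higher and 52.6% lower. Values for single genes below are normalised counts, in the order of replicates 1, 2 and 3, and positions are on GRCh38. TPP1 (ENSG00000166340, chromosome 11, 6612763 to 6619485), an exopeptidase that trims tripeptides from proteins, was at 1272, 1369 and 1387 with vehicle and 1732, 1823 and 1790.2 with extract. It rose (log2 fold change 0.41, SE 0.05, edgeR adjusted p = 0.00288), the largest increase among the enzymes. Each extract library of TPP1 stood above each vehicle library by more than the spread within either group. TPP1 was selected on this comparison, and the groups did not overlap in 98.5% of listed genes, so this separation adds no support.

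CTSA (ENSG00000064601, chromosome 20, 45890144 to 45898820), the serine carboxypeptidase that also shields beta-galactosidase and neuraminidase in a complex, was at 1647, 1777 and 1684 with vehicle and 2280.4, 2161 and 2084 with extract (log2 fold change 0.35, SE 0.05, edgeR adjusted p = 0.00519). MANBA, which cleaves beta-linked mannose, was at 1117, 1039.6 and 997 and 1311, 1310.4 and 1402 (log2 fold change 0.35, SE 0.06, edgeR adjusted p = 0.00807), a call that was lost without vehicle replicate 2. The lowest extract library of TPP1 was 1.25 times its highest vehicle library, and for CTSA and MANBA this ratio was 1.17 and 1.17.

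CTSE was the exception among the enzymes. It encodes cathepsin E (ENSG00000196188, chromosome 1, 206009264 to 206023909), an aspartic protease of the endosomal system that is abundant in stomach epithelium. Normalised counts were 20308, 20929.5 and 20405 with vehicle and 15543, 15682 and 15496 with extract, and it fell (log2 fold change -0.40, SE 0.04, edgeR adjusted p = 0.00131). No other member had a smaller p-value. Calls were kept under each of the 16 alternative settings for 5 members, with CTSE, TPP1, CTSA and the receptor IGF2R among them. CTSE belongs to the set through the KEGG map alone and carries none of the 3 GO terms.

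CTSE and PSAP changed places in the order of levels. Compared per length, in TPM, CTSE was the highest of the 57 genes with vehicle at 829.9, 838 and 832, above PSAP at 636, 688 and 674. With extract CTSE was at 641, 649 and 678 and PSAP, the precursor of the saposins, stood above it at 754, 811 and 806 in each library. Summed over the 17 enzymes, TPM went from 1858 ± 2.74 to 1973 ± 35.8 (SD, n = 3 each). Without CTSE, the other 16 enzymes summed to 1025 ± 5.34 TPM with vehicle and 1317 ± 16.4 with extract, a ratio of 1.29.

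Glycosphingolipids are taken apart stepwise by enzymes that need helper proteins to reach the lipid. Of 5 members in this route (HEXA, GM2A, GLB1, ASAH1 and PSAP, grouped after the table was seen), 5 were higher with extract and 4 of them passed the test. The share of all listed genes that passed in either direction was 81.6%. By edgeR 0 of the 5 passed when vehicle replicate 2 was left out, and 0 when vehicle replicate 3 was, with 5 of the 5 at an unadjusted p under 0.05 in both cases. Leaving out vehicle replicate 1 left 2 calls, and leaving out extract replicate 2 left 1. Over all listed genes, the fits without vehicle replicate 2, 3 or 1 or extract replicate 2 called 50, 79, 245 and 69 higher. In the same order they called 125, 224, 464 and 179 lower. HEXA, a subunit of hexosaminidase, went from 1891 ± 63.2 to 2207 ± 21.8 in normalised counts (mean ± SD over 3 libraries; log2 fold change 0.22). GLB1, beta-galactosidase, went from 1230.3 ± 25.2 to 1429 ± 91.8 (0.22). ASAH1, acid ceramidase, which acts near the end of the route, went from 1621 ± 34.4 to 1933 ± 108 (0.25).

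Among the lumenal cofactors, GM2A (ENSG00000196743, chromosome 5, 151212150 to 151270440), which lifts the ganglioside GM2 out of the membrane for hexosaminidase, was at 224, 217 and 237 with vehicle and 361, 288 and 303 with extract (log2 fold change 0.49, SE 0.11, edgeR adjusted p = 0.0234). Extract replicate 1 was the high library, and the call was lost without any one of the vehicle replicates. GENCODE 29 names 2 pseudogenes, GM2AP1 and GM2AP2, and overlap with CCDC69 on the opposite strand, so its reads may be shared. SUMF1, which activates sulphatases in the endoplasmic reticulum, was at 574, 530.4 and 541 and 663, 713 and 725 (log2 fold change 0.35, SE 0.07, edgeR adjusted p = 0.0130). PSAP, at 15026, 16245 and 15871 and 17385, 17596 and 17119, had a log2 fold change of 0.14 and did not pass (edgeR adjusted p = 0.0958). GRN, progranulin, whose fragments are the granulins of the lumen, was at 3267, 3658 and 3654 and 4511, 4203 and 3805 and did not pass either (0.24, edgeR adjusted p = 0.0621). Extract replicate 3 was the lowest extract library of GRN, at 1.04 times the highest vehicle library.

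Other enzymes rose by log2 fold changes between 0.17 and 0.36. FUCA1, which removes fucose, went from 443 ± 29.7 to 568 ± 18.4 in normalised counts (mean ± SD over 3 libraries; 0.36), and LIPA, the acid lipase of cholesteryl esters and triglycerides, from 626 ± 23.5 to 789 ± 56.0 (0.33). The annotated span of LIPA in GENCODE 29 also covers IFIT1, IFIT1B, IFIT2 and IFIT3 on the opposite strand, and whether counting used strand is not given in the sources used here. CTSB, a cysteine protease, went from 3767 ± 122 to 4252 ± 175 (0.17), and CTSV, a related protease, from 355 ± 2.86 to 447 ± 44.0 (0.33). RNASET2, an acid ribonuclease, was at 0.32, and ARSD, a member of the arylsulphatase family, was at 0.34. IFI30, a thiol reductase inducible by interferon gamma that opens disulphides in the lumen, was at 0.28. All of these enzymes passed the test with the 6 libraries. Without vehicle replicate 2, 4 of the 17 enzymes passed, with CTSE, TPP1 and CTSA among them.

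**Figure D2:**
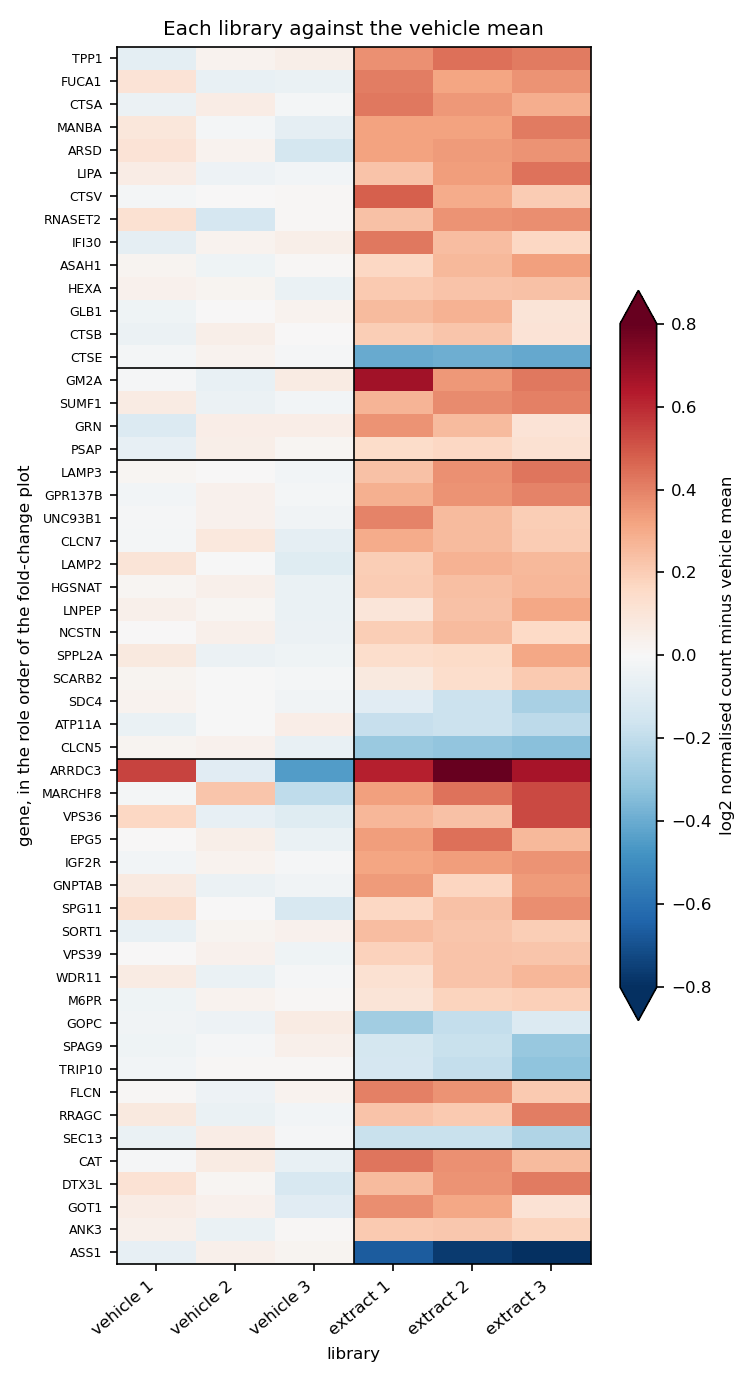
Log2 normalised count of 53 of the 57 lysosomal genes in each library minus the gene's mean over the 3 vehicle libraries, in the role order of the fold-change plot, with lines between roles and between groups. Within each row the 3 extract columns lie on the same side of 0, and ARRDC3 shows the widest spread among vehicle libraries.

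Over the 57 members, the library medians relative to the vehicle mean on the log2 scale were 0.00, 0.01 and -0.02 in the vehicle libraries and 0.23, 0.25 and 0.24 in the extract libraries. Over all listed genes the extract medians were -0.17, -0.21 and -0.22. Each extract library was thus above each vehicle library for the members and below for the listed genes.

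Membrane proteins numbered 14, of which 7 rose, 3 fell and 4 did not pass. Of all listed genes, 81.6% passed the test in either direction, 29.0% as higher and 52.6% as lower. LAMP3, a glycoprotein of the LAMP family that interferon induces, was at 704, 697 and 685 with vehicle and 819, 897 and 936 with extract (log2 fold change 0.35, SE 0.06, edgeR adjusted p = 0.0124). HGSNAT, the membrane enzyme that acetylates heparan sulphate, was at 1149.8, 1168 and 1097 and 1313, 1342 and 1369.9 (log2 fold change 0.24, SE 0.05, edgeR adjusted p = 0.0187). NCSTN, nicastrin of the gamma-secretase complex, was at 3302, 3395 and 3191 and 3783, 3934 and 3683 (log2 fold change 0.21, SE 0.04, edgeR adjusted p = 0.0221). In all 3 the extract libraries stood above the vehicle libraries, but the groups did not overlap in 98.5% of all listed genes. Each of these 3 calls needed vehicle replicates 2 and 3 and extract replicate 2, being lost when any one of these was left out.

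LAMP2, which lines the lysosomal membrane and serves as a receptor in chaperone-mediated autophagy, went from 2684 ± 182 to 3173 ± 90.6 in normalised counts (mean ± SD over 3 libraries; 0.24). CLCN7, the chloride/proton exchanger of lysosomes, went from 734 ± 41.6 to 873 ± 28.9 (0.25). GPR137B, a membrane protein that acts on mTORC1 at lysosomes, was at 0.35, and UNC93B1, the escort of endosomal Toll-like receptors, was at 0.29. The LAMP2 call was kept in 2 of the 6 fits that leave out 1 library, and those of CLCN7, GPR137B and UNC93B1 in 1 each. LNPEP, an aminopeptidase of recycling vesicles, was at 0.22, SPPL2A, an intramembrane protease, at 0.20, and SCARB2, an abundant glycoprotein of the lysosomal membrane, at 0.14. These last 3 did not pass the test (edgeR adjusted p = 0.0561, 0.0765 and 0.0943).

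The membrane proteins that were lower act largely at the cell surface and in endosomes. CLCN5 (ENSG00000171365, chromosome X, 49922615 to 50099235), a chloride/proton exchanger of endosomes, was at 3126, 3155 and 2959 with vehicle and 2503, 2469.6 and 2447 with extract, and it fell (log2 fold change -0.32, SE 0.04, edgeR adjusted p = 0.00420). ATP11A, a flippase that moves phospholipids across the membrane, was at 7205, 7475 and 7767 and 6570.3, 6643 and 6457 and fell (log2 fold change -0.19, SE 0.04, edgeR adjusted p = 0.0235). SDC4, a heparan sulphate proteoglycan of the cell surface, went from 6502 ± 123 to 5769.6 ± 346 (SD, n = 3 each; -0.17) and did not pass (edgeR adjusted p = 0.0676). With DESeq2 size factors from the table, CLCN5 no longer passed, at -0.14, ATP11A stood at -0.02 and SDC4 at 0.00. CLCN5 thus went the opposite way to its lysosomal relative CLCN7; the difference between these 2 genes was not tested.

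Genes of delivery and trafficking numbered 14, with 8 that rose, 2 that fell and 4 that did not pass, where 81.6% of all listed genes passed. The mannose 6-phosphate tag and the sortilin route were represented by 4 of them (GNPTAB, IGF2R, M6PR and SORT1, grouped after the table was seen). All 4 rose with the 6 libraries in the fit, and only IGF2R passed without vehicle replicate 2. Without vehicle replicate 3, extract replicate 2 or extract replicate 3, 2 of the 4 passed in each case. Over all listed genes, the fits without vehicle replicate 2 or 3 or extract replicate 2 or 3 called 50, 79, 69 and 253 higher. In the same order they called 125, 224, 179 and 433 lower. IGF2R (ENSG00000197081, chromosome 6, 159969099 to 160113507), the large mannose 6-phosphate receptor, was at 5137, 5329 and 5183 with vehicle and 6485, 6583 and 6689 with extract (log2 fold change 0.34, SE 0.04, edgeR adjusted p = 0.00242), the smallest p-value in this role. GNPTAB, the transferase that begins the mannose 6-phosphate tag, was at 1096, 1008 and 1023 and 1317, 1172 and 1316 (log2 fold change 0.28, SE 0.06, edgeR adjusted p = 0.0234). SORT1, sortilin, which carries a further set of cargo that includes prosaposin, was at 3499.5, 3709 and 3741 and 4328, 4259 and 4184 (log2 fold change 0.22, SE 0.04, edgeR adjusted p = 0.0145).

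M6PR, the smaller, cation-dependent receptor for the tag, went from 3537 ± 80.4 to 3948 ± 125 in normalised counts (mean ± SD over 3 libraries; log2 fold change 0.16, edgeR adjusted p = 0.0496), and limma-voom did not call it. The 4 genes summed to 237 to 246 TPM in the vehicle libraries and 284 to 313 TPM in the extract libraries, a ratio of 1.23. The log2 fold change was 0.34 for the larger receptor and 0.16 for the smaller one, and the difference between them was not tested.

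Of the tethers and sorting factors, EPG5, which tethers autophagosomes to late endosomes, was at 567, 585 and 545 with vehicle and 712, 767 and 678 with extract (log2 fold change 0.35, SE 0.07, edgeR adjusted p = 0.0158). VPS39, a subunit of the HOPS complex that docks vesicles on lysosomes, was at 1270.05, 1298 and 1241 and 1441, 1486 and 1479 (log2 fold change 0.21, SE 0.05, edgeR adjusted p = 0.0226). WDR11, part of a complex that captures vesicles at the trans-Golgi, was at 0.21, and MARCHF8, a ubiquitin ligase that sends surface proteins to lysosomes, was at 0.42. All 4 rose, and each call was lost without vehicle replicate 3 and also without extract replicate 2. Of the 6 fits that leave out 1 library, the EPG5 call was kept in 3. The VPS39, WDR11 and MARCHF8 calls were kept in 2 each. VPS36, of the ESCRT-II complex, was at 0.35 and SPG11, spatacsin, a protein of lysosome re-formation, at 0.26, neither past the test (edgeR adjusted p = 0.0626 and 0.0725).

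ARRDC3, an arrestin-like protein that directs receptors to degradation, had the highest positive log2 fold change of the members at 0.71 (SE 0.21) but did not pass (edgeR adjusted p = 0.0757). Its vehicle values were 299, 193 and 151 and its extract values 316, 400.3 and 325. Vehicle replicate 1 was nearly as high as the lowest extract library, so that the groups just failed to overlap.

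SPAG9 (JIP4), an adaptor that links lysosomes to motors, was at 7111, 7245 and 7481 with vehicle and 6596, 6427 and 5894 with extract and fell (log2 fold change -0.21, SE 0.05, edgeR adjusted p = 0.0325). TRIP10 (CIP4), a membrane-bending protein that links endocytosis to actin, went from 2109 ± 25.7 to 1817 ± 119 (SD, n = 3 each) and fell (-0.22). GOPC, a Golgi protein that directs surface proteins to lysosomes, was at -0.19 and did not pass (edgeR adjusted p = 0.0626). On none of the 4 other scales did SPAG9 or TRIP10 pass the test.

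The nutrient-sensing machinery at the lysosome was represented by 3 members. FLCN, folliculin, the activator of RagC and RagD, was at 690.3, 666 and 698 with vehicle and 907, 879.8 and 790.3 with extract (log2 fold change 0.33, SE 0.07, edgeR adjusted p = 0.0173). RRAGC, the GTPase RagC itself, was at 566, 517 and 529 and 629.6, 619 and 713 (log2 fold change 0.29, SE 0.08, edgeR adjusted p = 0.0475). Both rose, and neither passed when vehicle replicate 2 or 3 or extract replicate 2 was left out. The RRAGC call was also lost without vehicle replicate 1 and without extract replicate 3. SEC13, a subunit of the GATOR2 complex that also serves the COPII coat and the nuclear pore, was at 1807, 1955 and 1865 and 1659, 1656 and 1585 and fell (log2 fold change -0.20, SE 0.05, edgeR adjusted p = 0.0330), though on none of the 4 other scales.

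The last 5 members carry a lysosome term while their best known roles lie elsewhere. ASS1, argininosuccinate synthase of arginine synthesis, was at 120.2, 129.8 and 128 with vehicle and 79.4, 74.0 and 70.6 with extract, and it fell (log2 fold change -0.76, SE 0.13, edgeR adjusted p = 0.00895), the largest decrease of the 57. It has 11 annotated pseudogenes by name, so the division of its reads is uncertain, and its call was lost without vehicle replicate 2. CAT, the peroxisomal catalase, was at 649.9, 685 and 628 and 882, 842 and 781 (log2 fold change 0.35, SE 0.07, edgeR adjusted p = 0.0140). DTX3L, an interferon-inducible ubiquitin ligase, was at 2405, 2241 and 2030.2 and 2648, 2846 and 2968 (log2 fold change 0.34, SE 0.07, edgeR adjusted p = 0.0158); its gene overlaps PARP9 on the opposite strand. ANK3, ankyrin G, was at 1214, 1138 and 1187 and 1366, 1369.8 and 1332, and GOT1, the cytosolic aspartate transaminase, at 1349.8, 1328 and 1215 and 1676, 1609.6 and 1404. Both of these passed the test as higher (0.20 and 0.27, edgeR adjusted p = 0.0311 and 0.0499). The ANK3 call was lost in 4 of the 6 fits that leave out 1 library, and kept without vehicle replicate 1 or extract replicate 3. The GOT1 call was kept only without extract replicate 3 among these 6, and was lost by limma-voom. The CAT and DTX3L calls were each lost in 3 of the 6, those without vehicle replicate 2 or 3 or extract replicate 2.

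**Figure D3:**
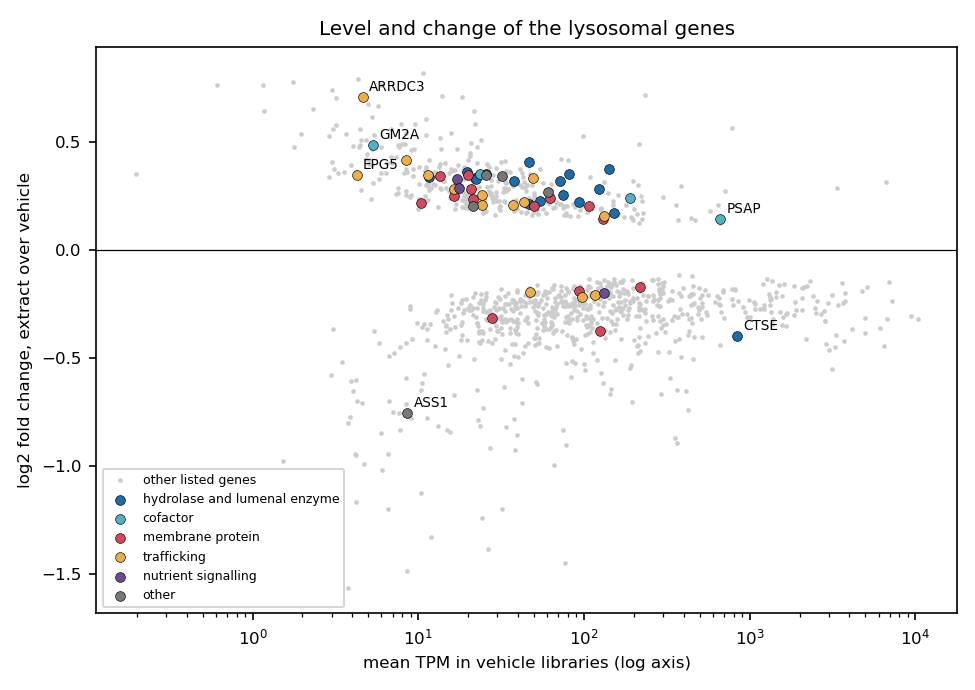
Mean TPM in the vehicle libraries (log axis) against log2 fold change (extract over vehicle) for the lysosomal genes, coloured by role, over the other listed genes in grey. CTSE and PSAP are the 2 members of highest level and lie on opposite sides of 0, and the band around 0 is empty because the table holds selected genes.

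Vehicle levels of the 57 genes ran from 4.26 TPM (EPG5) to 833 TPM (CTSE), with a median of 37.95 TPM against 53.9 TPM for all listed genes. After CTSE and PSAP came SDC4 at 217, GRN at 189 and CTSB at 153 TPM. With extract GRN was at 231 TPM, SDC4 at 203 TPM and CTSB at 183 TPM. All members together made up 0.454% to 0.462% of TPM in the vehicle libraries and 0.491% to 0.511% in the extract libraries.

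In TPM the groups overlapped in 5 of the 57 genes, ARSD, SPPL2A, GOPC, SPG11 and ANK3, which did not overlap in normalised counts. SPG11 differed most between the units. Its log2 ratio of mean TPM was 0.03, against a log2 fold change of 0.26 in counts, and for ARSD these were 0.18 and 0.34. TPM depends on the transcript lengths that the authors' program used in each library, which the table does not give.

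Annotation depth went with direction. Of the 4 lysosome terms, 31 genes carried 1, 14 carried 2, 8 carried 3 and 4 carried all 4. The 10 genes lower with extract all carried a single term, and the 26 genes with 2 or more terms were all higher, 23 of them past the test. Of the 31 genes with 1 term, 16 passed as higher and 8 as lower, and 81.6% of all listed genes passed either way. Median log2 fold changes were 0.22, 0.30, 0.34 and 0.24 for genes with 1, 2, 3 and 4 terms. In the KEGG map 23 of 24 members were higher, with CTSE the exception, and in the lumen term 18 of 19, with SDC4 the exception. The membrane term had 20 of 25 higher. These are counts over selected genes, and no test was made of them.

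**Figure D4:**
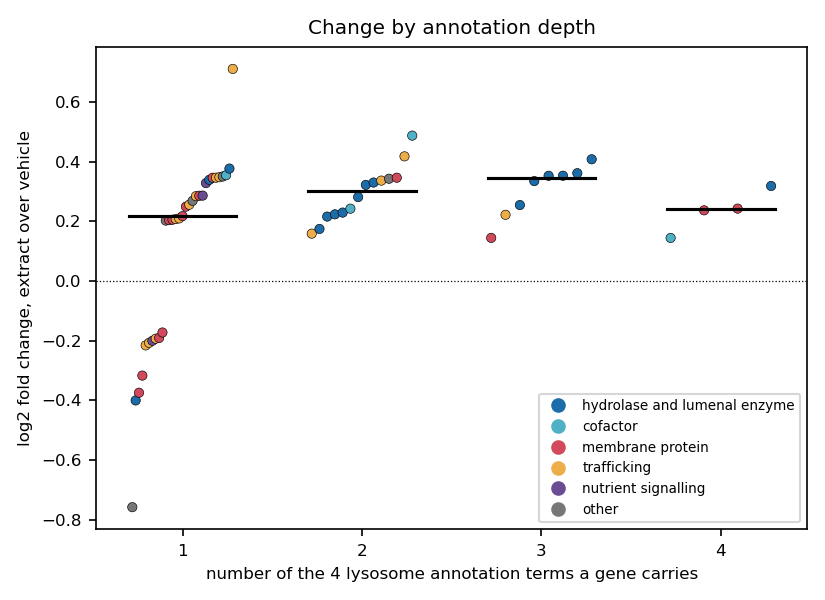
Log2 fold change (extract over vehicle) of the lysosomal genes by the number of the 4 lysosome annotation terms that each carries, coloured by role, with a line at each median. All points below 0 stand in the column of genes with 1 term.

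The scale on which libraries are compared moved calls in both directions. Size factors implied by the deposited fold changes gave the values above. Relative to these, the scale implied by TPM raised the median of all listed genes by 0.08, sums over the listed genes by 0.14, TMM by 0.15 and DESeq2 size factors by 0.17, on the log2 scale. Among the members, the TPM scale gave 46 calls higher and 4 lower (33.8% and 19.5% of listed genes), sums 47 and 4 (35.1% and 11.5%), TMM 46 and 2 (35.0% and 7.92%) and DESeq2 size factors 47 and 2 (35.2% and 7.83%). For the members the share of calls that were higher went from 83.0% to between 92.0% and 95.9%. Of the calls among all listed genes, 63.4%, 75.4%, 81.6% and 81.8% were higher on these 4 scales, against 35.6% on the scale used. CTSE and ASS1 passed as lower on all 5 scales, and SDC4 changed sign to 0.00 with DESeq2 size factors.

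**Figure D5:**
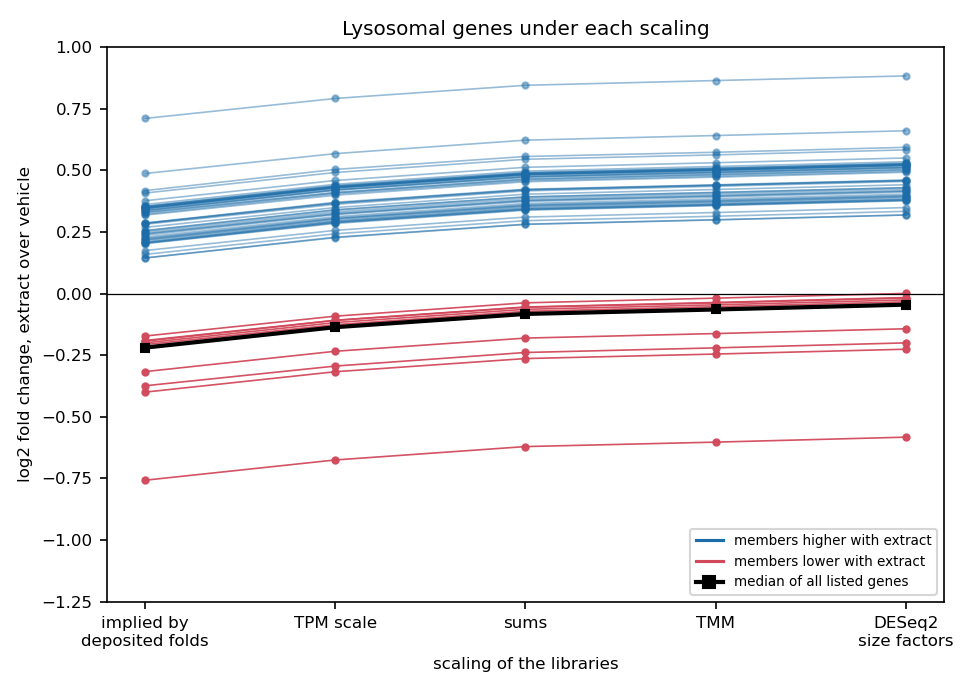
Log2 fold change (extract over vehicle) of each lysosomal gene on 5 scalings of the libraries, with members higher with extract in blue, members lower in red and the median of all listed genes in black. Higher members stay above 0 on every scale, and most of the lower ones approach 0 towards the right.

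Other genes of the pathway were taken from lists by role. For comparison, the table held 9.74% of all tested genes, while the lists may include untested genes. Among all 1099 genes in the table, 29.0% were called higher and 52.6% lower. Of 71 hydrolase symbols (aliases included) 16 were in the table, or 22.5%, 15 called higher and 1 lower, and all are members. CTSD, GAA, GLA and LGMN were not among them. Of 19 subunits of the V-ATPase, the proton pump that acidifies lysosomes, 0 were listed. In the list of membrane proteins 13 of 87 were listed (14.9%), in that of trafficking 8 of 96 (8.33%) and in that of nutrient signalling 5 of 43 (11.6%). Neither LAMP1, NPC1 and MCOLN1 nor TFEB, TFE3 and MITF were listed.

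Listed genes of these lists that carry no lysosome term behaved as follows. FNIP1, the partner of folliculin, rose (log2 fold change 0.35, SE 0.06, edgeR adjusted p = 0.00807), as did HPS3, a subunit of a complex for lysosome-related organelles (0.38), and LRP1, an endocytic receptor (0.29). ANXA1, a phospholipid-binding annexin, fell (-0.20). ANXA2, a relative of ANXA1, at -0.21, the tetraspanin TSPAN8 at -0.19 and the repressor BHLHE40 at 0.35 did not pass.

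Autophagy brings the cell's own material to the lysosome. Of 52 in the list 5 were in the table (9.62%), near the 9.74% of all tested genes that the table holds. Of these 5, 4 rose and 1 fell. Passing the test was common, at 81.6% of all listed genes, 29.0% as higher and 52.6% as lower. ULK1, the kinase that starts autophagosome formation, was at 1195, 1138 and 1155 with vehicle and 1501, 1356 and 1289 with extract (log2 fold change 0.25, SE 0.06, edgeR adjusted p = 0.0370). ATG13, its partner, was at 1364, 1455 and 1436 and 1746, 1712 and 1544 (log2 fold change 0.23, SE 0.06, edgeR adjusted p = 0.0367). WIPI1, which reads the lipid of the forming membrane, was at 666, 639.8 and 572 and 819, 789 and 761 (log2 fold change 0.34, SE 0.07, edgeR adjusted p = 0.0196), and EPG5 is given above. ATG4A, a protease that processes the ATG8 proteins, was at 370.2, 324 and 361 and 275, 269 and 282 and fell (log2 fold change -0.35, SE 0.09, edgeR adjusted p = 0.0371), a call that was lost on the 4 other scales and without any one library. None of the 5 passed edgeR's test once vehicle replicate 2, vehicle replicate 3 or extract replicate 2 was left out, with 5 of the 5 at an unadjusted p under 0.05 in each case. Over all listed genes these fits called 50, 79 and 69 higher and 125, 224 and 179 lower.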

How the data were processed

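Groups and replicate numbers came from the sample titles. The authors deposited 1 table with estimated counts and TPM values per gene and library. The authors' own comparison in it has a ratio of groups, its log2 value and p-values before and after adjustment, per the file headers. The submitters' processing notes name GRCh38.p13; aligner and counting program: not given in the sources used here. Deposited log2 values run vehicle over extract, and their sign was turned. Estimated counts (31.8% to 35.9% not whole) were rounded and divided by library size factors fitted to the deposited fold changes (median absolute log2 difference 5.84e-05). edgeR 4.0.16 (quasi-likelihood test, R 4.3.3) was run on all 1099 genes with no covariate, and p-values were adjusted by Benjamini-Hochberg over 11289 genes, the number implied by the deposited p-values. SE is the absolute log2 fold change over the square root of F. DESeq2 1.42.0 and limma 3.58.1 (voom) were alternatives. Scripts were tested on simulated data. Gene positions are from GENCODE 29.

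In each role the 6 members with the smallest p and at least 5 TPM in either group were chosen, 30 in all, and 27 of them are given with all 6 values; some members enter the counts, sums and medians but are not reported here by name. Members and lists were chosen with earlier results of these data known. Roles of 15 members were set or changed after the table was seen.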

Additional observations from a re-analysis of the deposited data

How the results depend on the processing

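The replicate number as a block gave 8 members higher and 3 lower past the test, 83 and 212 among all listed genes, and 1 and 0 autophagy genes. Same-numbered libraries had correlations of deviations of -0.23, -0.01 and -0.03, and libraries of unlike number -0.21 to 0.24. These come from listed genes alone, which were selected by p-value, so whether the numbers pair the samples cannot be told. Under 4 other scalings (TPM, sums, TMM, DESeq2 size factors, in that order) 4, 4, 2 and 2 members, 214, 126, 87 and 86 listed genes, and 0 autophagy genes in each case, passed as lower, and the member median was 0.34, 0.39, 0.41 and 0.43. SDC4 changed sign to 0.00038 with DESeq2 size factors. By the KEGG map alone 21 members passed as higher and 1 as lower, with a median of 0.27; by the lumen or membrane terms 27 and 4. Leaving out 1 library at a time gave 5 to 36 members higher and 2 to 9 lower, medians of 0.24 to 0.27, 50 to 286 and 125 to 570 listed genes, and 0 to 4 and 0 to 0 autophagy genes. Over the 16 alternatives 5 members passed in each. edgeR's filter removed 0 genes and the TPM filter 32. DESeq2's test called 47 members higher and 10 lower, with 372 and 689 among all listed genes. limma-voom called 37 and 8 members, with 317 and 590 among all listed genes. DESeq2's test used size factors fitted to the deposited fold changes, on genes selected by the deposited p-values, so its calls add no support. Because genes entered the table by their p-value in these libraries, the spread estimated from them may be too small. The cause of these shifts was not tested.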
